A study of Rattus norvegicus with 18 samples.

Results

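The genes described here encode the subunits of the proteasome, the protease complex that degrades most of the ubiquitin-tagged protein of a cell, together with the factors that assemble or activate it. They were measured in rat soleus muscle after nephrectomy or a sham operation, with the femoral artery of the right limb tied. The members are all genes whose single array symbol starts with Psma, Psmb, Psmc, Psmd or Psme, without the immunoproteasome genes Psmb8, Psmb9 and Psmb10, and each is represented by its probe set of highest mean over the 18 arrays. This gave 38 of the 14217 genes that a probe set names singly. By role they were 7 genes of the alpha ring, 6 of the beta ring, 6 ATPases of the base, 3 other subunits of the base, 8 of the lid, 3 assembly chaperones of the base and 3 activators. The remaining pair, Psmc3ip and Psme3ip1, encode proteins that interact with a subunit and share only the first letters of the symbol. Psmb6, the third catalytic subunit, and the activator Psme3 are listed on the array only together with other genes and are therefore no members.

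In the proteasome a barrel-shaped core particle cuts the protein chain, and a regulatory particle at its end decides what enters. The core is built of outer alpha rings, whose subunits form the gate, and inner beta rings that carry the cutting sites. The regulatory particle has a base, whose ring of ATPases unfolds the substrate, and a lid, which removes the ubiquitin. Chaperones bind the ATPases while the base is built and are not part of the finished proteasome. In skeletal muscle the ubiquitin-proteasome system degrades myofibrillar protein and is known for its part in muscle wasting, including that of kidney disease.

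Male rats had chronic kidney disease after 5/6 nephrectomy (SNX), an operation that removes most of the renal mass, and the control rats had a sham operation. The right femoral artery was ligated and resected 8 weeks later in all rats, and both soleus muscles were taken after 24 hours. The 4 groups were the right, ligated limb of SNX rats and their left limb (5 rats), and the right, ligated limb of sham rats and their left limb (4 rats). The limbs of a rat come from the same animal, and a source label that calls both limbs of SNX rats ischemic and both of sham rats nonischemic conflicts with the design text, so groups are named by operation and side. Values are log2 signals, and array medians ran from 3.22 to 3.37. Among the arrays, those of the right limb of rats 17 (sham) and 49 (SNX) were least like the rest, at mean correlations of 0.978 and 0.980. All 6 slow fibre markers and all 6 fast fibre markers lay above the array median on every array. The mean of the slow markers nevertheless ran from 11.11 to 14.28 in the SNX right limb, from 13.23 to 14.97 in the SNX left limb, from 13.41 to 14.70 in the sham right limb and from 12.14 to 14.76 in the sham left limb. Its lowest values were those of the right limb of SNX rat 20 and the left limb of sham rat 17, while the mean of the fast markers stayed between 14.64 and 14.99 on all arrays. The mean of 13 macrophage markers ranged from 5.44 to 8.17 in the SNX right limb and from 5.05 to 5.72 in the SNX left limb, and from 6.32 to 8.80 in the sham right limb and from 5.72 to 6.52 in the sham left limb. The highest of these means were those of the right limbs of rats 17 and 49, and the part of such cells in the results below was not tested.

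Most members were bright, with means between 8.14 and 13.41 on the log2 scale. The exceptions were Psmd9 at 5.93 and Psmc3ip at 6.26. Over the 18 arrays the SD of the base ATPase Psmc2, the brightest member, was 0.10, and that of the activator Psme2, the most variable, was 0.52.

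Proteasome genes are known to be controlled through antioxidant response elements bound by Nfe2l1 and Nfe2l2 and through CCAAT boxes. Both motifs were searched on both strands as TGACNNNGC and CCAAT, in the 250 bases before and 50 bases after the gene start, in the RefSeq promoters of rat assembly GRCr8. Of the 38 members 34 had an entry. TGACNNNGC was found in 7 of the 34 promoters (20.6%), against 12.1% of 33469 promoters in all, and CCAAT in 18 (52.9%), against 37.5%. The promoters of the 4 members that differed between the limbs in the unblocked fit are shown because the motifs set them apart from each other. Capitals mark the matches of either motif on either strand, so that CCAAT on the opposite strand reads ATTGG.
Psmd5: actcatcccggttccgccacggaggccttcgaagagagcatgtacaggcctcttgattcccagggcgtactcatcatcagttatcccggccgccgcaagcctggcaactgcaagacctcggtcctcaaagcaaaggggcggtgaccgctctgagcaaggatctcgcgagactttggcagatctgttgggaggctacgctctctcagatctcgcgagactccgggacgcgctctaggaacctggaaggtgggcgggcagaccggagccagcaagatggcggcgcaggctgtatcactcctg
Psmd9: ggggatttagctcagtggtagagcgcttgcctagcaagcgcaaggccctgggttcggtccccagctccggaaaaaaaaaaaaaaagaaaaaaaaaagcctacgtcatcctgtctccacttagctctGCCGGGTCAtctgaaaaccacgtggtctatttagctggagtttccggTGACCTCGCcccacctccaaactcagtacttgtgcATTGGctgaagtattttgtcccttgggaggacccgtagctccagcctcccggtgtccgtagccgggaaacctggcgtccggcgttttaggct
Psmd10: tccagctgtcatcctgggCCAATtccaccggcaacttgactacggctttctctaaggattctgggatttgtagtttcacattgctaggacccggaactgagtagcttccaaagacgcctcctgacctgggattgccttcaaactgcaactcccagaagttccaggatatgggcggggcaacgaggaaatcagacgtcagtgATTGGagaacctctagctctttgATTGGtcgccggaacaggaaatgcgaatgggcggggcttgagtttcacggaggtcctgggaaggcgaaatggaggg
Psmb2: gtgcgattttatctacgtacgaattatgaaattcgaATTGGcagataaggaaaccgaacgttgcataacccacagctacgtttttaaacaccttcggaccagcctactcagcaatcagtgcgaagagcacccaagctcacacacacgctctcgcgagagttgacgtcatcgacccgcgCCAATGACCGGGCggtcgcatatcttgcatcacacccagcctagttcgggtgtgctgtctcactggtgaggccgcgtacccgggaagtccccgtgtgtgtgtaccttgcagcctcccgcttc
The windows are chr3:38548441-38548740 on the minus strand for Psmd5, chr12:39018215-39018514 on the minus strand for Psmd9, chrX:109453556-109453855 on the minus strand for Psmd10 and chr5:144254808-144255107 on the plus strand for Psmb2. Psmd9 has 2 matches of TGACNNNGC, and Psmb2 has 1, which shares its first base with a CCAAT box. Psmd10 has 3 CCAAT matches and none of the other motif. Psmd5 has no match of either in this window. TGACNNNGC was also found for Psma3, Psmb5, Psmd1, Psmd3 and Psme4, none of which passed between the limbs with or without the block. The part of the motifs in the differences between the limbs was not tested. A match is a match of letters, not a shown binding site.

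The first question was how the ligated limb differed from the other limb of the same rats. Averaged over SNX and sham rats, the 3 base chaperones among the members differed between the limbs, and hardly any subunit among them did. Psmd5 and Psmd9 were 1.37-fold and 1.45-fold higher in the right limb, Psmd10 was 1.24-fold lower, and Psmb2, a beta ring subunit without a cutting site, was 1.12-fold higher. In limma's fit without the rat as a block these 4 of 38 members passed an adjusted p of 0.05 (10.5%), against 3.59% of all genes represented the same way. With the rat as a random block, 7 of 38 passed (18.4%), against 12.3% of all genes, and the additions were the lid genes Psmd11, Psmd12 and Psmd13. Of the 38 members 24 lay above 0 and 34 within 0.25 of it, with a median log2 difference of 0.07. Of all 14217 genes 40.2% lay above 0, with a median of -0.01. The difference between the limbs is a difference of bulk RNA, in which fewer cells of a type and less RNA per cell cannot be told apart.

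**Figure D1:**
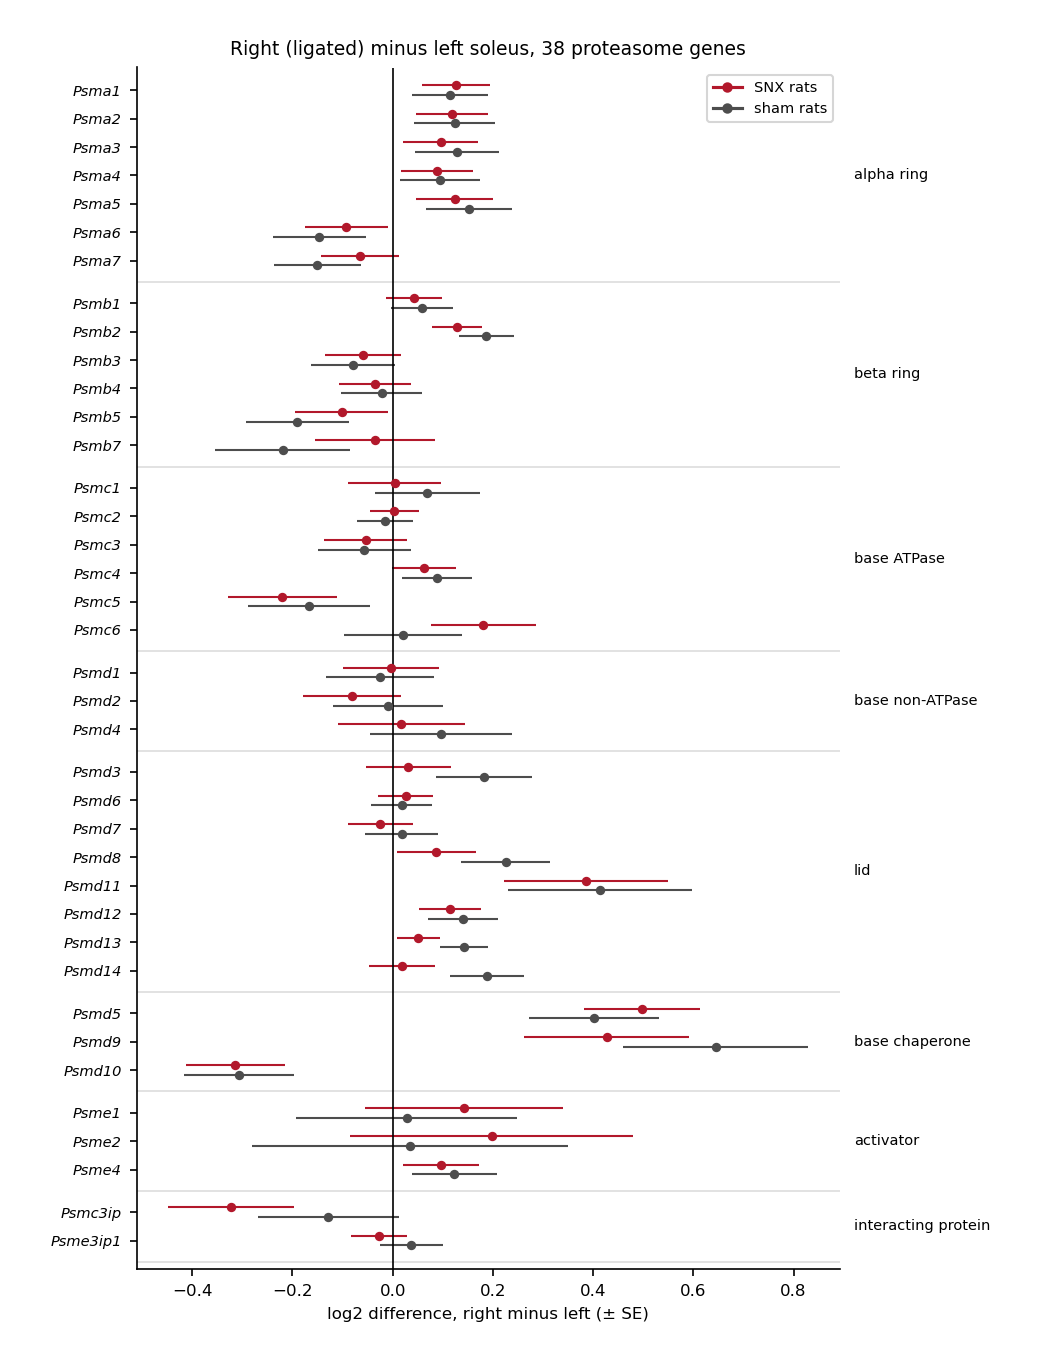
Right minus left soleus for each of the 38 genes, as a log2 difference with its standard error, in SNX rats (n = 5, red) and sham rats (n = 4, grey), ordered by role. Most genes lie within 0.25 of 0, while Psmd5, Psmd9 and Psmd11 lie to the right and Psmd10 to the left in both kinds of rat.

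Psmd5 binds ATPases of the base during its assembly. Its log2 signal was 9.30, 9.44, 9.32, 9.81 and 9.55 in the right limb of SNX rats 12, 18, 20, 37 and 49, against 9.06, 8.91, 9.08, 8.90 and 8.98 in their left limb. In sham rats 11, 13, 15 and 17 it was 9.50, 9.61, 8.93 and 9.48 in the right limb, against 8.98, 9.05, 8.87 and 9.01 in the left limb. Right and left did not overlap in SNX rats, and in sham rats only the right limb of rat 15 lay among the left limbs. The right limb was higher in 9 of 9 rats, by 0.45 ± 0.087 (SE) on the log2 scale, with an adjusted p of 0.017 in limma's unblocked fit and 0.0041 with the block.

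Psmd9 is a second chaperone of the ATPases, and it was the dimmest member. In the same order of rats its log2 signal was 5.82, 6.30, 6.51, 6.16 and 6.51 in the right limb of SNX rats, against 5.86, 5.71, 5.94, 6.07 and 5.59 in their left limb. In sham rats it was 6.26, 5.62, 5.98 and 6.52 in the right limb, against 5.69, 5.25, 5.45 and 5.41 in the left limb. The groups overlapped, and the right limb was higher in 8 of 9 rats, with SNX rat 12 the exception. The log2 difference was 0.54 ± 0.124 (SE), with an adjusted p of 0.036 in limma's unblocked fit and 0.0095 with the block. A second Psmd9 probe set, at a mean of 2.85 below the array medians, gave 0.04.

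Psmd10, also called gankyrin, binds the ATPase Psmc4 during assembly and was the member that went the other way. Its log2 signal was 8.10, 8.03, 8.38, 8.05 and 7.80 in the right limb of SNX rats, against 8.34, 8.46, 8.43, 8.45 and 8.26 in their left limb. In sham rats it was 8.08, 8.22, 8.12 and 8.03 in the right limb, against 8.44, 8.47, 8.13 and 8.65 in the left limb. Right and left overlapped in both kinds of rat. Psmd10 was lower in the right limb in 9 of 9 rats, and only SNX rat 20 and sham rat 15 had limbs of nearly equal level. The log2 difference was -0.31 ± 0.074 (SE), with an adjusted p of 0.040 in limma's unblocked fit and 0.0102 with the block.

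**Figure D2:**
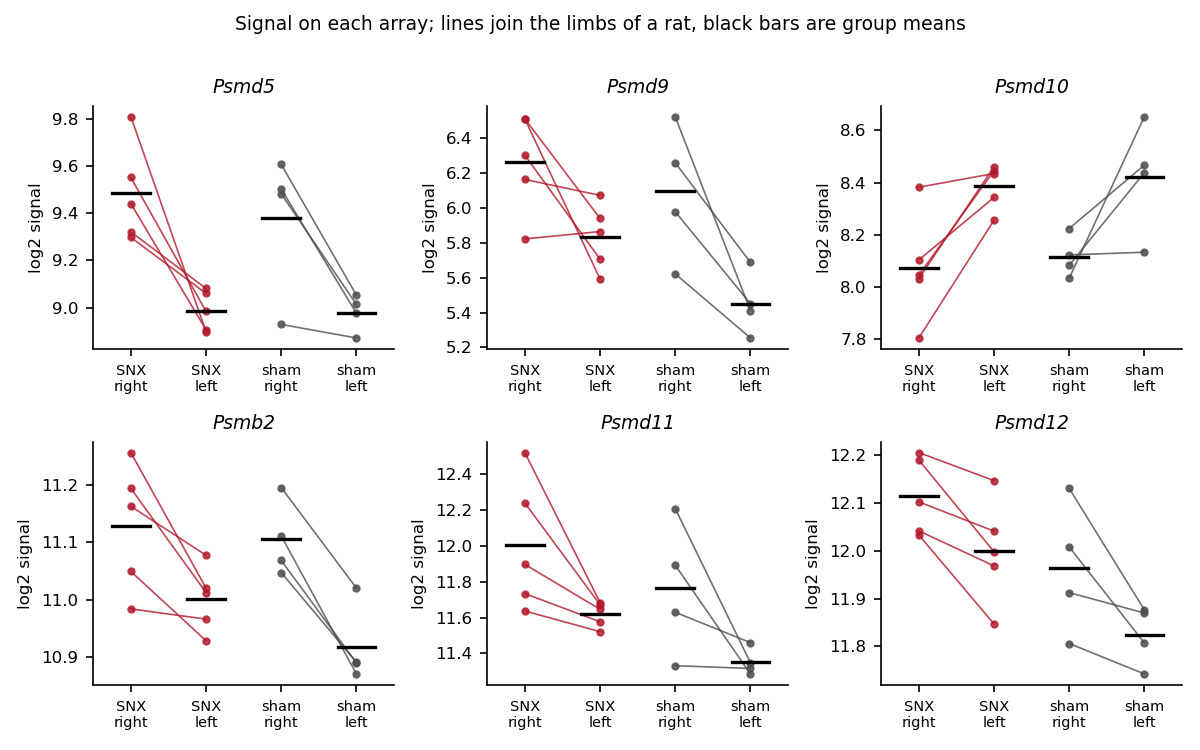
Log2 signal of 6 members on each of the 18 arrays. Each line joins the right and left limb of a rat, red for SNX (n = 5) and grey for sham (n = 4), and black bars are group means. Psmd5, Psmb2, Psmd11 and Psmd12 were higher in the right limb of all 9 rats and Psmd10 was lower in all 9.

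Leaving out 1 rat removed calls of members from the unblocked fit. No member passed without sham rat 11, sham rat 17 or SNX rat 37, 1 passed without sham rat 13 or SNX rat 49, 2 without SNX rat 12, sham rat 15 or SNX rat 18, and 3 without SNX rat 20. Of all 31042 probe sets 791 passed with all rats, 153 without rat 11, 190 without rat 17 and 161 without rat 37. This number rose to 1007 without SNX rat 20 and fell without each of the other rats. With the rat as a block, Psmd5, Psmd9, Psmd10 and Psmb2 each passed in all 9 of these fits. Without the right limb arrays of rats 17 and 49, Psmd5 alone passed in the unblocked fit (0.42, adjusted p = 0.043), and 5 members passed with the block.

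The core particle differed little between the limbs. Of its 13 genes 7 lay above 0, the median log2 difference was 0.05 and the range was -0.15 to 0.16. Psmb2 was the 1 core gene that passed, and it is not one of the cutting subunits. Its log2 signal was 11.05, 10.98, 11.16, 11.26 and 11.19 in the right limb of SNX rats, against 10.93, 10.97, 11.08, 11.02 and 11.01 in their left limb. In sham rats it was 11.11, 11.07, 11.05 and 11.20 in the right limb, against 10.87, 10.89, 10.89 and 11.02 in the left limb. The sham groups did not overlap, the SNX groups did, and the right limb was higher in 9 of 9 rats. The log2 difference was 0.16 ± 0.037 (SE), with an adjusted p of 0.039 in limma's unblocked fit and 0.0067 with the block.

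The cutting subunits among the members, Psmb5 and Psmb7, gave values below 0 and did not pass. Psmb5, which cuts after hydrophobic residues, had a log2 difference of -0.15 ± 0.069 (SE, adjusted p = 0.27 in limma's unblocked fit). Its signal was 12.35, 12.11, 12.53, 12.22 and 11.90 in the right limb of SNX rats, against 12.30, 12.25, 12.51, 12.36 and 12.21 in their left limb, and 12.19, 12.17, 12.32 and 12.09 in the right limb of sham rats, against 12.35, 12.35, 12.41 and 12.43 in their left limb. The sham groups did not overlap and the SNX groups did. Psmb7, which cuts after basic residues, had a log2 difference of -0.13 ± 0.090 (SE, adjusted p = 0.44), and was lower in the right limb in 8 of 9 rats. The values for Psmb3 and Psmb4 were -0.07 and -0.03, and that for Psmb1 was 0.05.

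In the alpha ring Psma1, Psma2, Psma3, Psma4 and Psma5 lay above 0, at 0.12, 0.12, 0.11, 0.09 and 0.14. Psma6 and Psma7 lay below 0, at -0.12 and -0.11. None of the 7 passed with or without the block, the lowest adjusted p being 0.21 without it and 0.072 with it. The same 5 lay above 0 and the same pair below it in SNX rats and in sham rats taken apart.

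In the regulatory particle 11 of 17 genes lay above 0, with a median log2 difference of 0.06 and a range of -0.19 to 0.40, and most of those above 0 belonged to the lid. Of the 8 lid genes 7 lay above 0, with a median of 0.11. Psmd11, which clamps the regulatory particle to the core, had the largest difference. Its signal was 11.73, 11.90, 11.64, 12.24 and 12.52 in the right limb of SNX rats, against 11.58, 11.65, 11.52, 11.67 and 11.68 in their left limb, and 11.89, 11.63, 11.33 and 12.21 in the right limb of sham rats, against 11.28, 11.46, 11.32 and 11.35 in their left limb. It was higher in the right limb in 9 of 9 rats, and the highest arrays were those of rats 49, 37 and 17. The log2 difference was 0.40 ± 0.123 (SE), with an adjusted p of 0.090 in limma's unblocked fit and 0.030 with the block. Without the right limb arrays of rats 17 and 49 it was 0.26 (adjusted p = 0.17), and a second probe set of the gene, with a mean of 10.95, gave 0.19 (adjusted p = 0.090, and 0.022 with the block).

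Psmd12 and Psmd13, structural subunits of the lid, passed with the block only. The log2 difference of Psmd12 was 0.13 ± 0.047 (SE, 9 of 9 rats, adjusted p = 0.16 in limma's unblocked fit and 0.045 with the block). That of Psmd13 was 0.10 ± 0.032 (SE, 8 of 9 rats, adjusted p = 0.12, and 0.046 with the block). With the block and 1 rat left out, Psmd11 passed in 4 of 9 fits and Psmd12 and Psmd13 in 2 each. The lid gene Psmd14, the enzyme that removes ubiquitin, had 0.10 (adjusted p = 0.27), Psmd8 had 0.16 (adjusted p = 0.17), Psmd3 had 0.11, Psmd6 had 0.02 and Psmd7 lay at 0.00.

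The base subunits gave small values in both directions, and none passed with or without the block. Among the ATPases, Psmc1, Psmc4 and Psmc6 had log2 differences of 0.04, 0.08 and 0.10, and Psmc2, Psmc3 and Psmc5 had -0.01, -0.06 and -0.19. Psmc5 had the lowest adjusted p of the 6, 0.21 in limma's unblocked fit, and was lower in the right limb in 8 of 9 rats. The scaffold subunits Psmd1 and Psmd2 had -0.01 and -0.05, and the ubiquitin receptor Psmd4 had 0.06. Of the pair of interacting proteins, Psmc3ip had -0.23 (adjusted p = 0.21) and Psme3ip1 0.01.

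Taken by kind of rat, no member passed in SNX rats (0.0563% of all genes did) or in sham rats (0.148%) in the unblocked fit. In SNX rats 6 members had an unadjusted p under 0.05 in limma's unblocked fit, against 2459 of all 31042 probe sets. In sham rats 8 members had, against 3828 of the probe sets. Of the 15521 probe sets above the median level, fitted alone, 2105 had such a p in SNX rats and 3133 in sham rats. With the block no member passed in SNX rats (0.492% of all genes) and 1 did in sham rats (2.46%). That member was Psmb2, with a log2 difference of 0.19 in sham rats (adjusted p = 0.043 with the block, and 0.19 without it). The largest differences of SNX rats were those of Psmd5 (0.50) and Psmd9 (0.43) above 0 and Psmc3ip (-0.32) and Psmd10 (-0.31) below it. Those of sham rats were Psmd9 (0.64) and Psmd11 (0.41) above 0, and Psmd10 (-0.31) and Psmb7 (-0.22) below it.

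Whether the limbs differed by another amount in SNX than in sham rats was tested as the difference of the 2 differences. No member passed with or without the block, as no gene on the arrays did (0% in both fits), and no member had an unadjusted p under 0.05 in limma's unblocked fit, where 437 of the 31042 probe sets had. The values ran from -0.22 for Psmd9 and -0.19 for Psmc3ip to 0.16 for Psme2 and 0.18 for Psmb7, with a median of -0.02 over the 38 genes. For Psmd5 the value was 0.10 ± 0.174 (SE), for Psmd10 -0.01 ± 0.148 and for Psmb2 -0.06 ± 0.075. A value that did not pass does not show that SNX and sham rats responded alike.

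The other question was how SNX muscle differed from sham muscle within the same limb. The regulatory particle was on the side of SNX throughout: all 17 genes lay above 0 in both limbs, with median log2 differences of 0.11 (right) and 0.18 (left). Of the 13 core genes 10 lay above 0 in right limbs and 7 in left limbs, with medians of 0.02 and 0.03. Not 1 of the 38 members passed in either limb with or without the block. Of all genes 0% passed for right limbs and 0.0141% for left limbs, in either fit. In right limbs 6 members had an unadjusted p under 0.05 in limma's unblocked fit, against 2872 of all 31042 probe sets. In left limbs 10 members had, against 1941 of the probe sets. Of the 15521 probe sets above the median level, fitted alone, 1247 had such a p in right limbs and 1468 in left limbs. Over all genes 59.8% lay above 0 for right limbs and 59.0% for left limbs, with medians of 0.02 and 0.01. The genes of a particle share the arrays, so their common direction is not 17 separate observations. Both limbs come from the same rats, so their agreement is not a separate observation either.

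**Figure D3:**
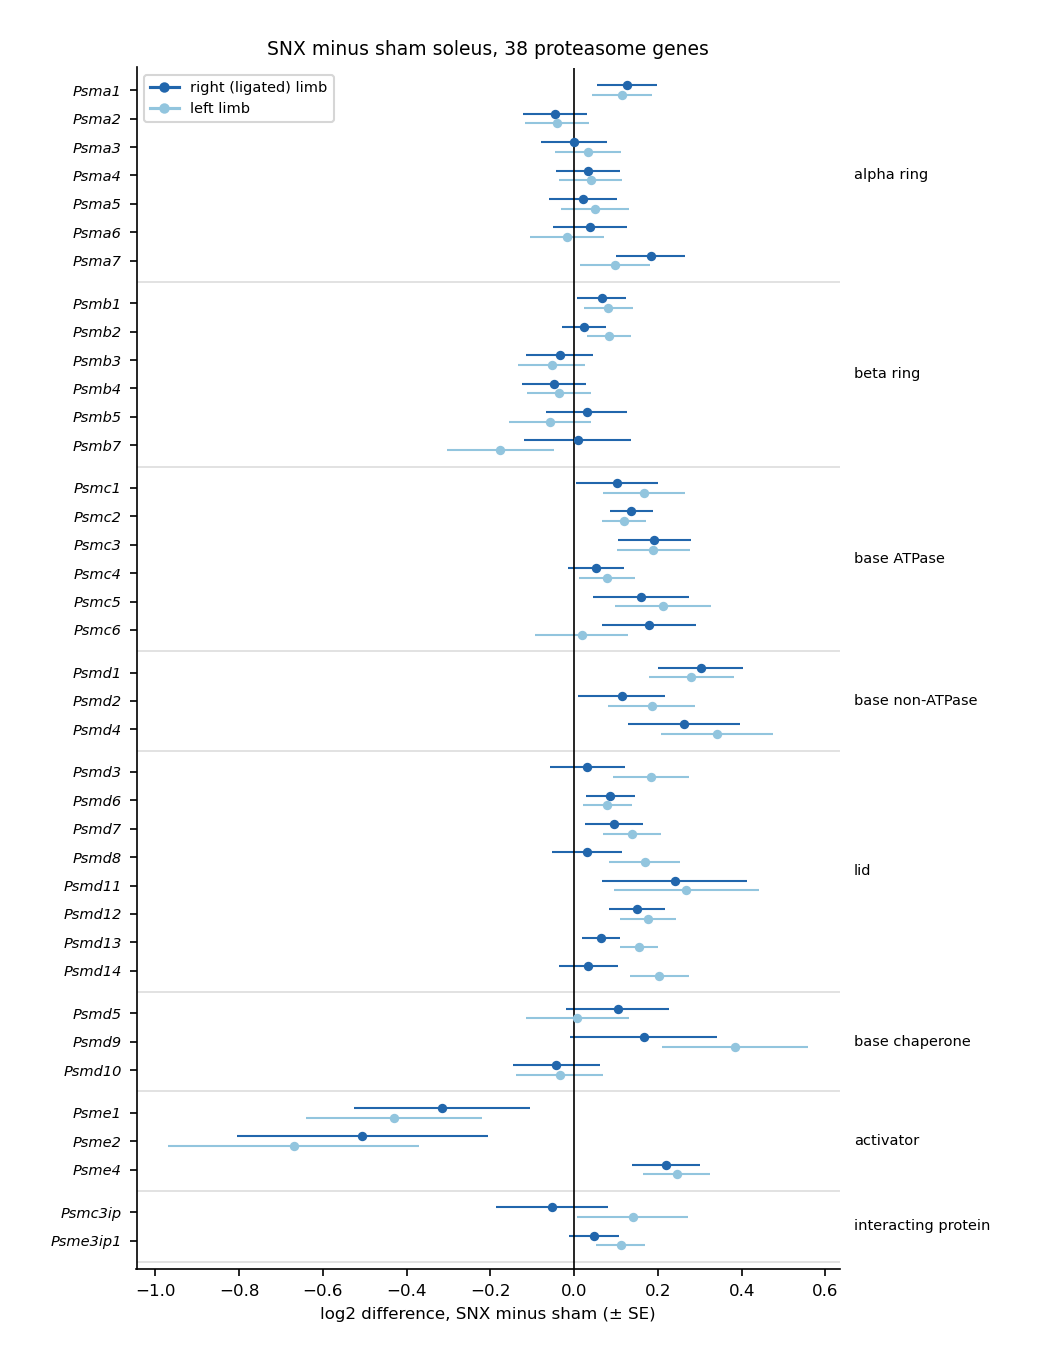
SNX minus sham soleus for each of the 38 genes, as a log2 difference with its standard error, in the right, ligated limb (dark blue) and the left limb (light blue), ordered by role (5 SNX and 4 sham rats). All base and lid genes lie above 0 in both limbs, the core genes lie on both sides of 0, and Psme1 and Psme2 lie furthest below it.

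Averaged over its 17 genes, the regulatory particle's deviation from the mean of all arrays was 0.09 ± 0.055 in the SNX right limb, 0.05 ± 0.049 in the SNX left limb, -0.05 ± 0.096 in the sham right limb and -0.12 ± 0.075 in the sham left limb (log2, SD over rats). The SNX arrays lay between 0.011 and 0.136, and all 5 SNX left limbs lay above all 4 sham left limbs, the highest of which was at -0.035. In the right limb the groups overlapped through sham rat 17, at 0.068. The Schwann cell and adipocyte markers separated the same left limbs, with lower values in SNX rats. The mean of 4 measured of 6 Schwann cell markers was 5.23 to 5.86 in SNX left limbs, against 6.44 to 8.51 in sham left limbs, and that of 5 adipocyte markers was 5.53 to 6.80 in SNX left limbs, against 6.81 to 8.57 in sham left limbs. Of these markers Sox10 and Lep lay below the array median on every array. The mean of 7 fibroblast markers was 9.38 to 10.42 in SNX left limbs, against 10.09 to 11.05 in sham left limbs, and these ranges overlapped. In the right limb the ranges of all 3 lists overlapped. They were 5.74 to 7.96 in SNX against 6.62 to 8.43 in sham rats for Schwann cells and 5.80 to 7.08 against 6.47 to 8.35 for adipocytes. For fibroblasts they were 10.22 to 10.70 against 9.98 to 11.16. The ranges of the mean of 5 endothelial markers overlapped in both limbs. They were 7.17 to 7.84 in SNX against 7.48 to 7.81 in sham left limbs, and 7.53 to 7.84 against 7.74 to 8.42 in right limbs. The part of these cells in the SNX and sham differences was not tested. The core particle averaged 0.02 ± 0.077, 0.00 ± 0.035, -0.01 ± 0.044 and -0.01 ± 0.062 in the same 4 groups, which overlapped. When each rat was left out in turn, between 14 and 17 of the regulatory genes stayed above 0 in the right limb, the lowest number without sham rat 15, and 16 or 17 did in the left limb. When each array was centred on its median, all 17 stayed above 0 in both limbs, with medians of 0.10 and 0.16.

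**Figure D4:**
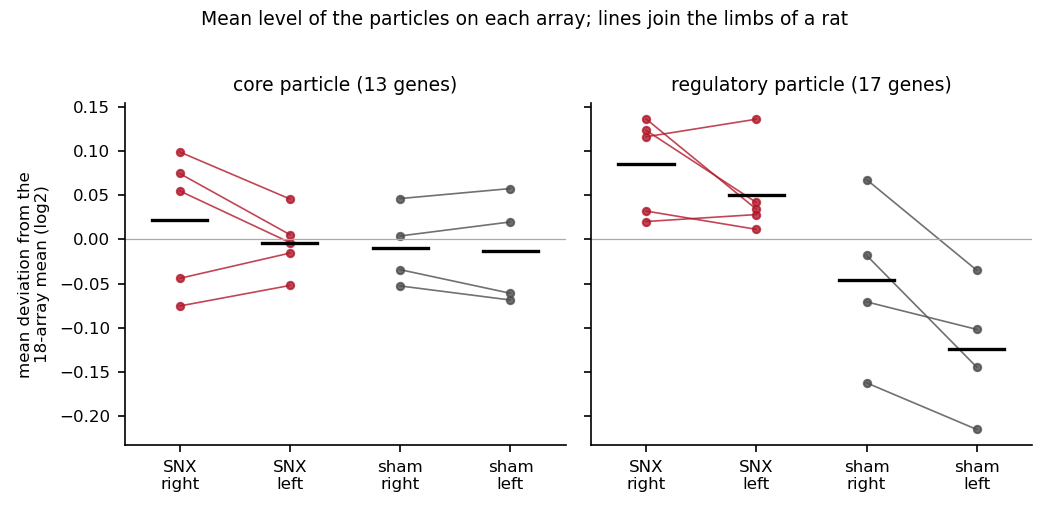
Mean deviation of the 13 core genes and of the 17 regulatory genes from their own 18-array means (log2) on each array. Lines join the limbs of a rat, red for SNX (n = 5) and grey for sham (n = 4), and black bars are group means. The regulatory means of SNX arrays lie between 0.011 and 0.136, above those of all sham arrays but that of the right limb of rat 17 at 0.068.

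By the probe sets that represent the genes, the base genes Psmd1 and Psmd4 gave the largest differences of the particle. Psmd1, a scaffold of the base, had a signal of 9.99, 10.19, 10.37, 10.19 and 10.13 in the right limb of SNX rats, against 9.78, 9.78, 9.75 and 10.19 in that of sham rats. In the left limb it was 9.90, 10.19, 10.31, 10.22 and 10.27 in SNX rats, against 9.99, 9.95, 9.75 and 9.90 in sham rats. SNX rat 12 (left limb) and sham rat 17 (right limb) made the groups overlap. The log2 difference was 0.30 ± 0.102 (SE) for right limbs and 0.28 ± 0.102 for left limbs, with adjusted p of 0.50 and 0.68 in limma's unblocked fit.

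Psmd4, which holds ubiquitin chains for the base, had log2 differences of 0.26 ± 0.134 (SE) for right limbs and 0.34 ± 0.134 for left limbs (adjusted p of 0.50 and 0.73 in limma's unblocked fit). Its left limb signals were 10.34, 11.03, 10.55, 10.61 and 10.68 in SNX rats, against 10.24, 10.17, 10.25 and 10.53 in sham rats, and only SNX rat 12 lay within the sham range. For Psmd2 the values were 0.11 and 0.19. The ATPases lay between 0.05 (Psmc4) and 0.19 (Psmc3) in the right limb and between 0.02 (Psmc6) and 0.21 (Psmc5) in the left limb.

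In the lid the differences ran from 0.03 to 0.24 in the right limb and from 0.08 to 0.27 in the left limb, Psmd11 having the highest in both. Psmd13 had the lowest unadjusted p of the members in the left limb (0.0042, adjusted p = 0.48 in limma's unblocked fit), with signals of 10.40, 10.40, 10.37, 10.31 and 10.37 in SNX rats, against 10.14, 10.29, 10.16 and 10.26 in sham rats. These groups did not overlap, and their log2 difference was 0.15. Psmd14 had 0.20 in the left limb, with signals of 11.58, 11.57, 11.69, 11.68 and 11.61 in SNX rats, against 11.44, 11.47, 11.30 and 11.48 in sham rats, and 0.03 in the right limb. A second Psmd7 probe set, with a mean of 10.36, gave 0.33 for right limbs and 0.27 for left limbs, and the brighter one gave 0.10 and 0.14. Among the chaperones, Psmd9 had 0.17 for right limbs and 0.38 for left limbs, the highest of the members above 0 in the left limb, and Psmd5 and Psmd10 had between -0.04 and 0.10 in both. The interacting proteins Psmc3ip and Psme3ip1 had -0.05 and 0.05 in the right limb and 0.14 and 0.11 in the left limb.

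The activators, which open the core without the regulatory particle, split. Psme4, a large single-chain activator, lay above 0 by 0.22 ± 0.081 (SE) for right limbs and 0.24 ± 0.081 for left limbs (adjusted p of 0.50 and 0.58 in limma's unblocked fit). Its left limb signals were 11.63, 11.54, 11.74, 11.62 and 11.73 in SNX rats, against 11.50, 11.32, 11.29 and 11.52 in sham rats, with no overlap. Its other probe sets, with means of 10.87 and 10.07, gave 0.16 and 0.28 in the right limb and 0.20 and 0.20 in the left limb. Between the limbs these probe sets disagreed: 0.11 for the brightest, -0.20 and 0.12 for the others.

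Psme1 and Psme2, which form a joint ring and are known to be induced by interferon-gamma, were the members furthest below 0. Psme2 had a signal of 9.95, 9.60, 9.91, 11.09 and 10.43 in the right limb of SNX rats, against 11.13, 11.02, 10.06 and 10.60 in that of sham rats. In the left limb it was 9.92, 9.74, 10.38, 10.03 and 9.93 in SNX rats, against 11.09, 10.35, 11.07 and 10.16 in sham rats. The groups overlapped in both limbs. The log2 difference was -0.51 ± 0.299 (SE) for right limbs and -0.67 ± 0.299 for left limbs, with adjusted p of 0.50 and 0.78 in limma's unblocked fit.

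For Psme1 the differences were -0.32 ± 0.210 and -0.43 ± 0.210 (SE, adjusted p of 0.50 and 0.82). Its signal was 10.66, 10.79, 10.71, 11.62 and 10.92 in the right limb and 10.60, 10.72, 11.19, 10.89 and 10.58 in the left limb of SNX rats, against 11.50, 11.54, 10.89 and 11.08 in the right limb and 11.43, 11.05, 11.54 and 10.88 in the left limb of sham rats. Both genes were high on the same arrays: the right limb of SNX rat 37, both limbs of sham rat 11, the right limb of sham rat 13 and the left limb of sham rat 15. The macrophage marker means were the lowest of the sham rats in rat 11, at 6.32 (right) and 5.72 (left). They were the highest in the right limb of rat 17, at 8.80, where Psme2 had 10.60, and 7.09 in that of rat 13. By group their medians were lower in SNX than in sham rats, at 6.49 against 6.87 (right) and 5.28 against 6.23 (left). The part of macrophages in the values of Psme1 and Psme2 was not tested. Between the limbs the genes did not pass, at 0.12 for Psme2 and 0.09 for Psme1.

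**Figure D5:**
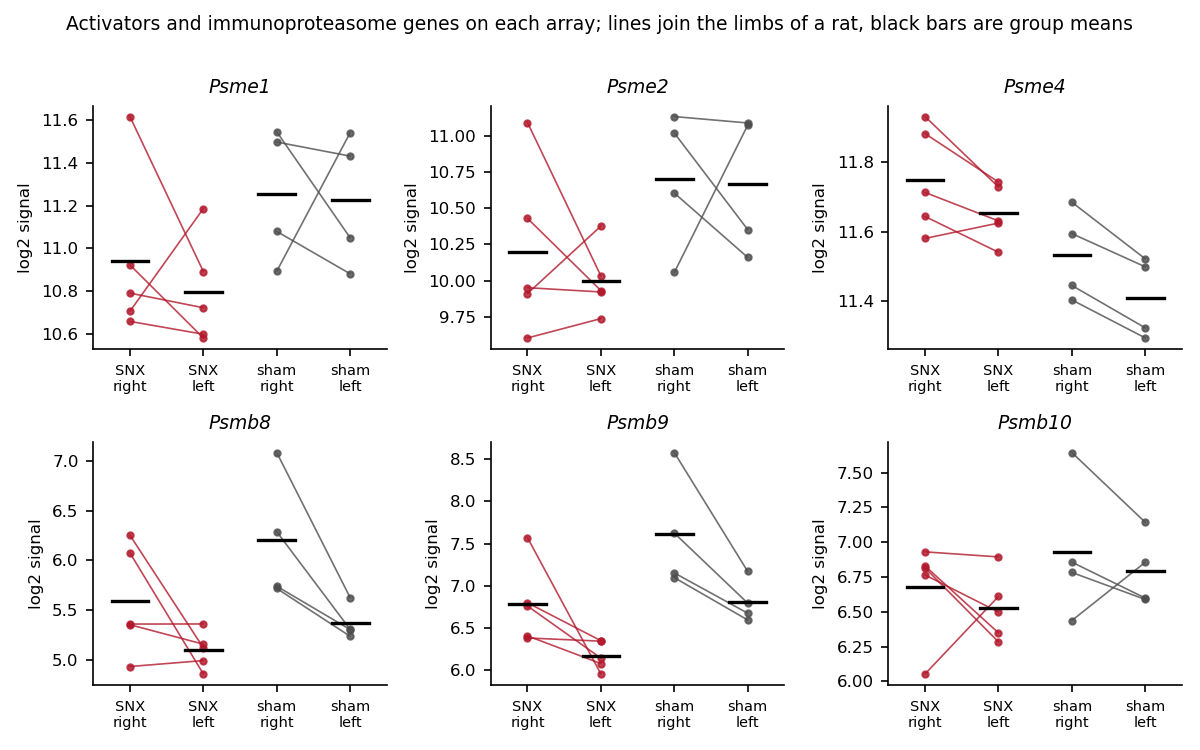
Log2 signal of the activators Psme1, Psme2 and Psme4 and of the immunoproteasome genes Psmb8, Psmb9 and Psmb10 on each array. Lines join the limbs of a rat, red for SNX (n = 5) and grey for sham (n = 4), and black bars are group means. Psmb9 was higher in the right limb of all 9 rats, while Psme1 and Psme2 were high in single arrays of either limb.

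The immunoproteasome genes, whose products replace the cutting subunits in immune cells and after interferon, were no members but share these arrays. Psmb9 was higher in the right limb in 9 of 9 rats, by 0.71 ± 0.199 (SE) on the log2 scale, and Psmb8 in 7 of 9, by 0.67 ± 0.201. They passed only with the block (adjusted p of 0.020 and 0.027, and 0.071 and 0.085 in limma's unblocked fit). Psmb10 had 0.14. The signal of Psmb9 was 6.41, 6.80, 6.38, 6.76 and 7.57 in the right limb of SNX rats, against 6.08, 6.35, 6.35, 6.15 and 5.96 in their left limb, and 7.10, 7.62, 7.15 and 8.58 in the right limb of sham rats, against 6.60, 6.80, 6.68 and 7.17 in their left limb. Its highest values in either kind of rat were in the right limbs of rats 49 and 17, the arrays with the highest macrophage means. Without these arrays Psmb9 had 0.45 and Psmb8 0.46. The 3 genes lay below 0 in SNX against sham muscle of both limbs, between -0.83 and -0.25, and none passed.

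Around the proteasome, 44 of 51 genes listed for assembly, regulation, ubiquitin delivery and muscle ubiquitin ligases or as immunoproteasome genes were measured. Between the limbs 5 of the 44 were higher and 1 lower in the right limb in limma's unblocked fit, and 8 were higher and 3 lower with the block, against the 3.59% and 12.3% of all genes above. Those shares include dim genes, and of the 15521 probe sets above the median level, fitted alone without the block, 1796 passed. Midn, midnolin, which brings nuclear proteins to the proteasome without ubiquitin, had the largest difference, 1.92 ± 0.201 (SE, adjusted p = 0.00057). Its signal was 11.49, 11.24, 11.68, 11.84 and 12.13 in the right limb of SNX rats, against 10.45, 9.73, 10.52, 9.63 and 9.36 in their left limb, and 12.38, 12.25, 12.25 and 12.18 in the right limb of sham rats, against 9.69, 10.66, 10.73 and 9.56 in their left limb. Right and left did not overlap in either kind of rat, and averaged over both it passed in all 9 unblocked fits that left out 1 rat. Taken apart, SNX rats had 1.74 (adjusted p = 0.033 in limma's unblocked fit) and sham rats 2.10 (adjusted p = 0.013). With the rat as a fixed term the adjusted p was 0.13 in SNX and 0.051 in sham rats. With 1 rat left out of the unblocked fit, Midn passed in 0 of 9 fits in SNX rats (adjusted p of 0.055 to 0.31) and in 6 of 9 in sham rats, where it was lost without sham rats 11, 13 or 17 (adjusted p up to 0.15).

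Zfand2a, a stress-induced protein that binds the regulatory particle, was higher in the right limb by 1.35 ± 0.269 (SE, adjusted p = 0.020 in limma's unblocked fit), in 9 of 9 rats. Its signal was 6.69, 6.64, 6.84, 7.16 and 8.16 in the right limb of SNX rats, against 6.67, 6.34, 6.10, 5.83 and 5.69 in their left limb, and 7.95, 7.36, 7.02 and 9.10 in the right limb of sham rats, against 5.87, 6.40, 6.05 and 6.20 in their left limb. The other 15 of the 17 assembly and accessory genes did not pass without the block. Among them were the assembly factor of the core Pomp (-0.07) and the core chaperones Psmg1, Psmg2, Psmg3 and Psmg4 (-0.17, 0.05, -0.24 and -0.16). With the block Txnl1, a redox protein bound to the regulatory particle, passed as higher (0.22) and the ubiquitin ligase Ube3c as lower (-0.24).

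Of the 6 regulators of proteasome genes Nfe2l2 passed, at 0.37 ± 0.081 (SE, 9 of 9 rats, adjusted p = 0.028 in limma's unblocked fit). Its difference was 0.15 in SNX rats and 0.60 in sham rats, and the difference of these, -0.44 ± 0.161, did not pass (adjusted p of 1, unadjusted p = 0.015). Nfe2l1, which drives subunit genes when the proteasome is inhibited, had 0.03. Of 10 ubiquitin and delivery genes Sqstm1, an autophagy receptor for ubiquitin, passed as higher (0.28, adjusted p = 0.018), and Ubqln2, a shuttle to the proteasome, passed as lower with the block only (-0.19). Of 8 muscle ubiquitin ligases Cblb was higher (0.57, adjusted p = 0.029) and Trim32 lower (-0.39, adjusted p = 0.034). These calls depended on the rats in the fit, as those of the members did. With 1 rat left out of the unblocked fit, Zfand2a passed in 6 of 9 fits, Sqstm1 in 5, Cblb in 4, and Nfe2l2 and Trim32 in 3 each, with adjusted p of up to 0.089, 0.073, 0.12, 0.090 and 0.12 in that order. All 5 were lost without sham rat 11, sham rat 17 or SNX rat 37, all but Zfand2a without sham rat 13, Cblb, Nfe2l2 and Trim32 without SNX rat 18, and Nfe2l2 and Trim32 without SNX rat 49. With the rat as a fixed term the adjusted p was 0.054 for Zfand2a, 0.081 for Cblb and 0.061 for Trim32, and Nfe2l2 and Sqstm1 passed (0.037 and 0.039). A second Sqstm1 probe set gave 0.51 (adjusted p = 0.17). With the rat as a random block and 1 rat left out, Cblb passed in 8 of 9 fits, with rat 17 the exception, and the other 4 genes in all 9. The ligases of muscle atrophy Trim63 and Fbxo32 had 0.46 and 0.20 and did not pass (adjusted p of 0.24 and 0.67). None of the 44 genes passed for SNX against sham in either limb. In right limbs 5 of them had an unadjusted p under 0.05 in limma's unblocked fit, against 2872 of all 31042 probe sets. In left limbs 7 of them had, against 1941 of the probe sets. Of the 15521 probe sets above the median level, fitted alone, 1247 had such a p in right limbs and 1468 in left limbs.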

How the data were processed

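RNA of the soleus was hybridised to 18 Affymetrix rat arrays, 1 for each limb of 9 rats, and groups came from the sample titles (operation, rat number and side). The deposited data are log2 values already normalized by the authors, per the submitters' processing notes, which name RMA, GCRMA and Partek with neither version nor role. The method behind the values is therefore unknown here, and RMA differs from GCRMA mainly in dim probe sets. Arrays carry no read depth, and the number of rats limits the precision.

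Of 31099 probe sets 57 controls were left out and 31042 tested, with 1 mean per group over all 18 arrays in limma 3.58.1 (lmFit and eBayes, R 4.3.3), so that 4 groups shared 1 estimate of the spread (14 residual and 1.02 prior degrees of freedom). Two-sided p-values were adjusted over all probe sets (Benjamini-Hochberg, threshold 0.05). The 6 comparisons were right minus left in SNX rats, in sham rats and averaged over both, SNX minus sham in each limb, and the difference of the responses. The paired fit takes the rat as a random block, through duplicateCorrelation, which gave a consensus of 0.297. Both limbs come from the same animal, and 7 of 9 rats had a correlation over 0.1 between the deviations of their limbs. Labels do not say that rats of a group were handled separately, so p-values reach no further than the spread among these animals. The unblocked fit ignores the pairing of limbs, so its p for right against left does not measure how that difference varied between rats.

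Gene symbols are those of the platform annotation, some of them old. All 38 members matched RefSeq genes of GRCr8 by gene ID. Probe sets that list several genes were not named. Tables and figures were made with Python 3.11.15, pandas 2.3.3 and matplotlib 3.10.9, and the fit was tested on simulated data. Named are members past the threshold in either fit, fixed members of each role, the 2 highest and 2 lowest members of each comparison and listed pathway genes past the threshold. Members named besides these were chosen after their values were seen. Alternatives were another normalization or centring, a filter on dim probe sets, a trended robust spread, array weights, the rat as a fixed term, the block, other probe sets, and leaving out each rat or the right limb arrays of rats 17 and 49. The members and lists were chosen with earlier results of these data known.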

Additional observations from a re-analysis of the deposited data

Results flagged for a closer look

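In 8 of 152 group values of the 38 genes, 1 rat lay far from the others of its group by Dixon's test for outliers, which chance does for about 1 in 20 groups. In the sham left limb, Psma1 was low in rat 15 (10.80, the others at 10.97 to 10.99), and Psmb2 and Psmb3 were high in rat 17 (11.02, the others at 10.87 to 10.89, and 11.19, the others at 10.89 to 10.93). In the sham right limb, Psma3 was low in rat 17 (9.86, the others at 10.12 to 10.15) and Psmd1 was high in it (10.19, the others at 9.75 to 9.78). In the SNX right limb, Psmb4 and Psmc5 were low in rat 49 (12.17, the others at 12.44 to 12.50, and 10.99, the others at 11.52 to 11.63), and Psme1 was high in rat 37 (11.62, the others at 10.66 to 10.92). Of these 8 values 4 come from the right limb arrays of rats 17 and 49, which stood apart on all probe sets.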

How the results depend on the processing

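For right against left averaged over all rats, 4 members passed, and 7 did with the replicate block. The number was 2 with arrays centred on their median, 2 with a trended robust spread, 1 without the right limb arrays of rats 17 and 49, and 0 of 9 genes with their second brightest probe set, which is dim for 4 of them (Psmb5, Psmc4, Psmd9 and Psme1). It was 0 to 3 when each rat was left out. Quantile normalization again, array weights, the filter on dim probe sets, the rat as a fixed term and the mean of a gene's probe sets gave 3 or 4. With the block, leaving out each rat gave 4 to 8. In SNX rats 0 members passed with the block, and 0 to 1 when each rat was left out. In sham rats 0 passed without the block and 1 with it, 0 to 2 with the block and each rat left out, and 0 with the block and without the right limb arrays of rats 17 and 49. For SNX against sham in each limb and for the difference of the responses, no member passed under any of these settings. The median of the difference of the responses was -0.02, and 0.032 without the right limb arrays of rats 17 and 49, and the cause was not tested.

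No difference whose sign changed had passed without the block, and the cause was not tested. For right against left, Psmc2 gave 0.0113 with array weights, 0.00252 with the block and without those arrays, and -0.0161 to 0.00385 when each rat was left out (0.00187 without rat 12). Psmd1 gave -0.0673 to 0.0166 when each rat was left out, with 0.00995 without rat 13 and 0.00269 without rat 49, also with the block. Psmd2 gave 0.00943 with array weights and Psmd4 -0.00329 without those arrays. Second probe sets gave -0.0231 for Psmc4, -0.0273 for Psme1, -0.197 for Psme4 and 0.0662 for Ube3c, and 0.0175 for Psme1 in SNX against sham right limbs. The difference of the responses of Psme2 ran from -0.188 (without rat 15) to 0.374 when each rat was left out, and was -0.0524 without rat 37. Dim probe sets limit Psmd9 and Psmc3ip most.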
